A study of Arabidopsis thaliana with 16 samples.

Results

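The 30S and 50S ribosomal proteins described here are nuclear-encoded and are titled as parts of organelle-type ribosomes, some only as putative or related. They were chosen by title: every probe set of the ATH1 array whose gene title holds "30S ribosomal protein" or "50S ribosomal protein", without those of the plastid or mitochondrial genome. The rule used no measured value. It found 23 probe sets for 23 genes, of 23616 genes named on the array, and left out 13 plastid-encoded probe sets. Of the 23 genes, 8 carried a 30S title and 15 a 50S title. The deposited annotation placed 22 in the chloroplast. The remaining gene, a 50S-related protein (AT5G16200), was placed in the mitochondrion, so the title did not make all of them chloroplast genes.

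Plant chloroplasts translate their own messages on ribosomes of the bacterial type, with a small 30S and a large 50S subunit. Some of the proteins of these ribosomes are made in the plastid, but most are encoded in the nucleus, made in the cytosol and imported. In leaves they serve the synthesis of the plastid-encoded subunits of the photosystems, the ATP synthase and Rubisco. A few are named plastid-specific ribosomal proteins (PSRP).

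Total RNA of rosette leaves was measured on 16 arrays, 2 for each of 8 groups: wild-type Columbia plants (WT) or the transgenic line FG, in space or on the ground, under long days (LD, 16 h light) or short days (SD, 8 h light). FG plants carry FLOWERING LOCUS T and green fluorescent protein, each driven by the heat shock-inducible promoter of HSP17.4 and brought together by crossing, whereas WT plants carry neither. Plants were grown for 20 days and then flew on the SJ-10 satellite for about 12 days or stayed in a matched unit on the ground. Space plants were sampled about 2 h after landing, and the paper counts altered gravity during landing as part of spaceflight. Plants under SD, of either genotype and in either environment, were also heated briefly early in the flight, so SD against LD compares heated with unheated plants as well. The methods call the replicates biological, and each treatment drew on leaves of a pair of plants. All space plants shared 1 flight unit and all ground plants 1 control unit, so p-values measure only the spread between arrays within a unit, and environment cannot be told apart from the unit and its handling.

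Values are MAS 5.0 signals, scaled by the authors to the same trimmed mean on every array. They can be compared between arrays for 1 gene but not between genes. For tests, signals below 75 were raised to 75 and log2 was taken. A probe set entered the tests if it exceeded 75 on both replicates of a group, which held for 14286 probe sets and for all 23 ribosomal protein genes. Genes were called with limma over all 16 arrays where the change was at least 2-fold and the p, adjusted by Benjamini-Hochberg over all probe sets tested, was below 0.05. Log2 fold changes are given ± the standard error of that fit, and n is 2 arrays a group throughout. In bulk leaf RNA, fewer cells of a type and less RNA per cell cannot be told apart.

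Several measures of the arrays differed with the environment. Space arrays held 12560 to 13722 present calls and ground arrays 11759 to 13042 (exact permutation test over the arrays, two-sided p = 0.000311). Spike-in hybridization controls averaged 11.43 log2 units in space and 11.92 on the ground (p = 0.000155, exact permutation). The 3′ minus 5′ difference of the actin control averaged 1.23 log2 units in space and 1.72 on the ground (p = 0.000622, exact permutation), and that of the GAPDH control -0.05 in space and 0.17 on the ground (p = 0.0406, exact permutation). Over 5 measures tested, the largest adjusted p was 0.0406. Summed signals of 13 heat shock genes were 282 to 1281 in space and 4448 to 66630 on the ground, without overlap. Of these 13 genes, 5 had no present call on any array. Leaf identity was checked by RCA, PSBO1 and LHCA1, which were present on all 16 arrays and summed to 30791 to 48106 in space and 5183 to 36006 on the ground. Root markers summed to 62.6 to 202 in space and 74.6 to 187 on the ground, with 4 of 5 present on no array. Markers of flowers (86.5 to 565 in space, 79.9 to 717 on the ground), guard cells (242 to 837, against 270.0 to 785), vasculature (1480 to 3632, against 573 to 6474) and dividing cells (50.8 to 292, against 140 to 643) overlapped between environments. Of these lists, 3 of 5, 2 of 6, 4 of 5 and 2 of 4 genes measured had no present call on any array.

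Of the 23 genes, 22 had a present call on every array. The mean log2 signal over the 23 genes was 11.02 and 11.38 in WT under LD in space, against 9.54 and 9.93 on the ground. In FG under LD the means were 10.97 and 11.38 in space, against 11.27 and 10.48 on the ground. Under SD, WT had 10.64 and 10.48 in space, against 9.04 and 10.82 on the ground. FG under SD had 10.33 and 10.62 in space, against 10.22 and 10.24 on the ground. The 8 space arrays thus lay between 10.33 and 11.38, with all 4 LD arrays above all 4 SD arrays. The 8 ground arrays lay between 9.04 and 11.27, and the lowest 3 were all of WT.

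**Figure D1:**
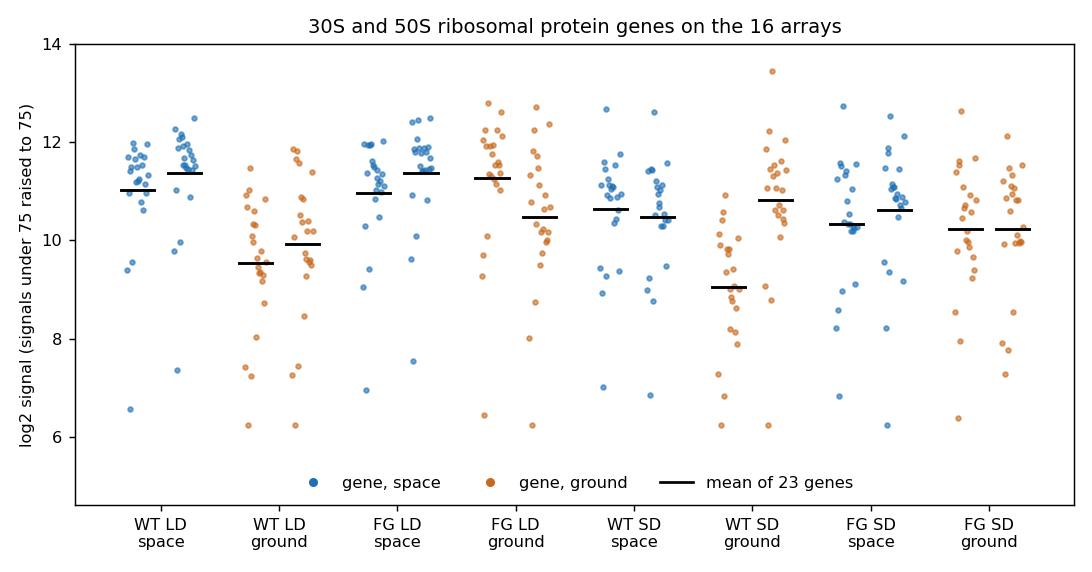
Log2 signals of the 23 genes (points, signals under 75 raised to 75) on each of the 16 arrays, 2 arrays a group from left to right, with blue for space, orange for ground and black lines for the mean of the 23 genes. The means lie between 10.33 and 11.38 on space arrays and between 9.04 and 11.27 on ground arrays.

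The replicates on the ground lay further apart than those in space. In WT under SD on the ground, replicate 2 was higher than replicate 1 for 22 genes, with both arrays below 75 for the remaining one and a median difference of 1.82 log2 units. Over all probe sets tested the same median difference was 0.08. In FG under LD on the ground, replicate 2 was lower for 20 of 23 genes, with a median difference of -0.85. The median SD between replicates over the 23 genes was 1.28 log2 units in WT under SD on the ground, against 0.38 over all probe sets tested. In the space groups it ran from 0.14 to 0.32, against 0.14 to 0.21 over all probe sets tested. WT replicate 1 under SD on the ground, the lowest for these genes, had the highest summed heat shock signal of all arrays, 66630, and a leaf marker sum of 12167, whereas its replicate 2 had 7674 and 36006. FG replicate 2 under SD on the ground had the lowest leaf marker sum, 5183, but a mean of 10.24 for the ribosomal protein genes. The part of these measures in the results was not tested.

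**Figure D2:**
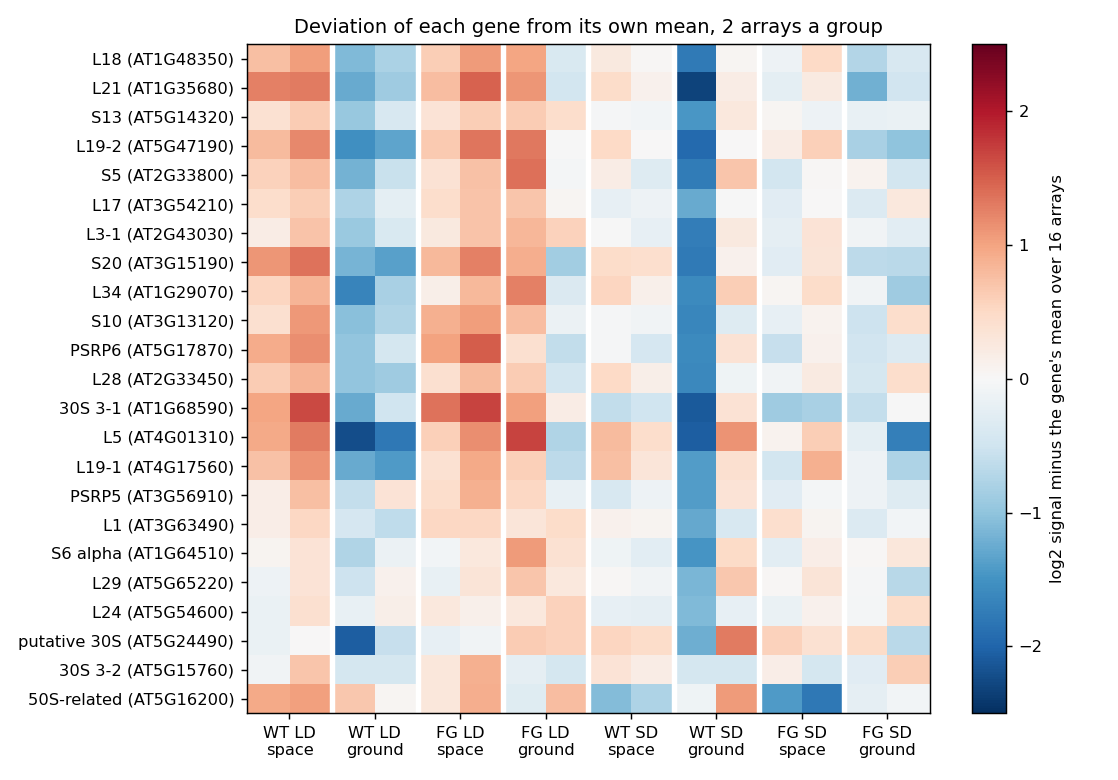
Deviation of each gene (rows) from its own mean over the 16 arrays (columns, 2 arrays a group), in log2 units, with red above and blue below the mean. The WT ground arrays under LD and replicate 1 of WT under SD on the ground are blue for most genes, while AT5G16200, in the lowest row, is bluest in the 4 space arrays under SD.

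Space against ground in WT under LD gave the largest difference. All 23 genes had a positive log2 fold change, as did 54.3% of all probe sets tested. Of the 23 genes, 10 were called higher in space and 0 lower, where 10.9% of all probe sets tested were called higher and 5.79% lower. The median log2 fold change was 1.54 for the 23 genes and 0.09 for all probe sets tested. For 20 genes the space arrays lay above the ground arrays without overlap, as they did for 37.0% of all probe sets. The called genes were 3 of the 8 with a 30S title and 7 of the 15 with a 50S title, with medians of 1.39 and 1.69 over the tested genes of each title.

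The largest rise was that of L5 (AT4G01310), a protein that holds 5S rRNA in the bacterial large subunit. Its signal was 2355 and 2978 in space, against 260 and 353 on the ground, a log2 fold change of 3.13 ± 0.96 (limma, adjusted p = 0.0444). Both space arrays lay far above the higher ground array. L18 (AT1G48350), which also binds 5S rRNA in bacteria, had 2253 and 2760 in space, against 625 and 774 on the ground, a log2 fold change of 1.84 ± 0.56 (adjusted p = 0.0415).

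The paralogous pair of L19 proteins, which in bacteria sit at the interface of the subunits, rose together. L19-2 (AT5G47190) had 751 and 1004 in space, against 151 and 174 on the ground (2.42 ± 0.58, adjusted p = 0.0170). L19-1 (AT4G17560) had 674 and 887, against 170.0 and 153 (2.26 ± 0.62, adjusted p = 0.0295). Each name has its own probe set, and each probe set names a single gene.

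Among the other large subunit proteins, L21 (AT1G35680) had 3311 and 3422 in space, against 577 and 752 on the ground (2.35 ± 0.71, adjusted p = 0.0409). L28 (AT2G33450) had 2443 and 2856, against 793 and 850 (1.69 ± 0.49, adjusted p = 0.0358). PSRP6 (AT5G17870), a plastid-specific protein of the large subunit, had 3736 and 4418, against 994 and 1455 (1.76 ± 0.56, adjusted p = 0.0488). It was the called gene nearest to the threshold.

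In the small subunit, S20 (AT3G15190), an early binder of 16S rRNA in bacteria, had 3398 and 4013 in space, against 700 and 616 on the ground (2.49 ± 0.61, adjusted p = 0.0181). S10 (AT3G13120) had 1755 and 2820, against 647 and 791 (1.64 ± 0.47, adjusted p = 0.0333). The 30S protein 3-1 (AT1G68590), which carries the symbol PSRP3/1, had 2010 and 3195, against 421 and 722 (2.20 ± 0.64, limma, adjusted p = 0.0364). None of these 3 genes overlapped between the groups.

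The 13 genes that were not called had log2 fold changes of 0.13 to 1.92. L34 (AT1G29070) had 2974 and 3667 in space, against 654 and 1160 on the ground (1.92 ± 0.69, adjusted p = 0.0734). S5 (AT2G33800, EMB3113), which in bacteria acts in decoding, had 2566 and 2906, against 755 and 1163 (1.54 ± 0.68, adjusted p = 0.134). L24 (AT5G54600), an assembly-starting protein in bacteria, had the smallest difference, with 2899 and 4282 in space, against 2863 and 3616 on the ground. Its log2 fold change was 0.13, with a 95% interval of -0.58 to 0.84. L29 (AT5G65220), at the exit of the peptide tunnel in bacteria, had 2742 and 3779, against 2090 and 3224 (0.31, 95% interval -0.80 to 1.42). Among the 15 genes with a 50S title the fold thus ran from 1.10 for L24 to 8.73 for L5.

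The calls in WT under LD depended on each of the 4 arrays compared. With any 1 of the 4 arrays of WT under LD left out, 0 of the 23 genes were called, while the median log2 fold change stayed between 1.23 and 1.78. Over all probe sets tested, 3.44% to 8.88% were then called higher. Leaving out either array of FG under LD in space or of WT under SD in space left 3 calls (9.55% and 9.21% of all probe sets higher), and either array of FG under SD in space left 5 (10.5%). Without either array of the ground groups not compared, 8 to 15 genes were called (11.2% to 12.2%). The count was 0 with no filter on low signals, where 4.44% of all probe sets were called higher, and 2 with only the 4 arrays compared, where 0.896% were. It was 6 with no floor (8.36% of all probe sets), 6 with median centring (6.69%) and 16 when arrays were scaled to the spike-in controls (26.0%). A rule modelled on that of the methods, named the rule of the methods below, called 11 of the 23 genes and 13.5% of all probe sets. It asked for an unadjusted p below 0.05, at least 2-fold, and the same direction in both replicates. Its p came from a t test on log2 signals with the spread of both groups. The methods instead name the standard deviation of the ground control, and the paper's results add a false discovery rate of 0.05. The scalings also moved the median of all probe sets, to -0.18 (median centring) and 0.63 (spike-in scaling), and the share of calls over all probe sets that were higher, from 65.3% as deposited, became 39.9% (median centring) and 91.2% (spike-in scaling). Relative to the median of all probe sets, the median of the 23 genes was 1.45 as deposited, 1.39 after median centring and 1.50 after spike-in scaling. The arrays compared also differed in the leaf markers, with sums of 44364 and 46253 in space, against 11512 and 18145 on the ground. Their heat shock genes summed to 1281 and 372 in space, against 36769 and 11037 on the ground. The part of either in the result was not tested.

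In FG under LD, 0 of the 23 genes were called, where 9.46% of all probe sets were called higher and 4.49% lower. At an unadjusted p below 0.05, 2 genes were higher and 0 lower, where 19.6% of all probe sets were higher and 11.7% lower, and the rule of the methods called 0, where it called 12.3% of all probe sets. The median log2 fold change was 0.36 for the 23 genes and 0.07 for all probe sets tested. With FG replicate 2 under LD on the ground left out the median was -0.055, and with replicate 1 left out 0.86. PSRP6 had the largest value, with 3974 and 5621 in space, against 2606 and 1283 on the ground (1.37 ± 0.56, adjusted p = 0.120). S20 had 2756 and 3787, against 2958 and 855 (1.02 ± 0.61, adjusted p = 0.282). For L5 the space arrays, 1827 and 2724, lay between the ground arrays, 3943 and 721. Its log2 fold change was 0.40 with a 95% interval of -1.72 to 2.53, so changes in either direction could not be told apart from 0. The putative 30S protein (AT5G24490) had 3958 and 4285 in space, below 7074 and 6752 on the ground (-0.75 ± 0.70, adjusted p = 0.511).

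Space arrays of both genotypes under LD were close to each other, and the ground arrays were not. FG against WT under LD in space gave a median log2 fold change of -0.04, with values from -0.39 to 0.28 over the 23 genes and 0 calls (limma, where 0% of all probe sets were called higher and 0.00700% lower, with 0 genes and 4.88% of all probe sets at an unadjusted p below 0.05). FG against WT under LD on the ground gave a median of 1.21, with 22 of 23 genes positive, as were 47.0% of all probe sets. For 19 genes both FG ground arrays lay above both WT ground arrays, as they did for 14.1% of all probe sets tested. None of these differences was called, and 0% of all probe sets were called higher and 0.0280% lower. At an unadjusted p below 0.05, 12 genes were higher and 0 lower, where 3.38% of all probe sets were higher and 4.77% lower. The rule of the methods called 1 gene, higher in FG, and 1.11% of all probe sets. L5 had 3943 and 721 in FG on the ground, against 260 and 353 in WT on the ground (2.47 ± 0.96, adjusted p = 0.526). L19-2 had 1091 and 430.1, against 151 and 174 (2.08 ± 0.58, adjusted p = 0.350). S5 had 4442 and 1650, against 755 and 1163 (1.53 ± 0.68, adjusted p = 0.606).

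The difference between the responses of FG and WT was tested as an interaction, the response of FG to space minus that of WT. Under LD its median was -1.28 over the 23 genes, and 22 of them were negative, as were 51.3% of all probe sets. None was called (limma, where 0.0350% of all probe sets were called higher and 0% lower), and 1 gene was negative at an unadjusted p below 0.05, as were 2.30% of all probe sets. L5 had the largest value, -2.72 ± 1.36 (adjusted p = 0.954). The response under LD is thus not shown to differ between the genotypes. The response of WT, the comparison of FG with WT on the ground and this interaction share the WT ground arrays under LD.

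**Figure D3:**
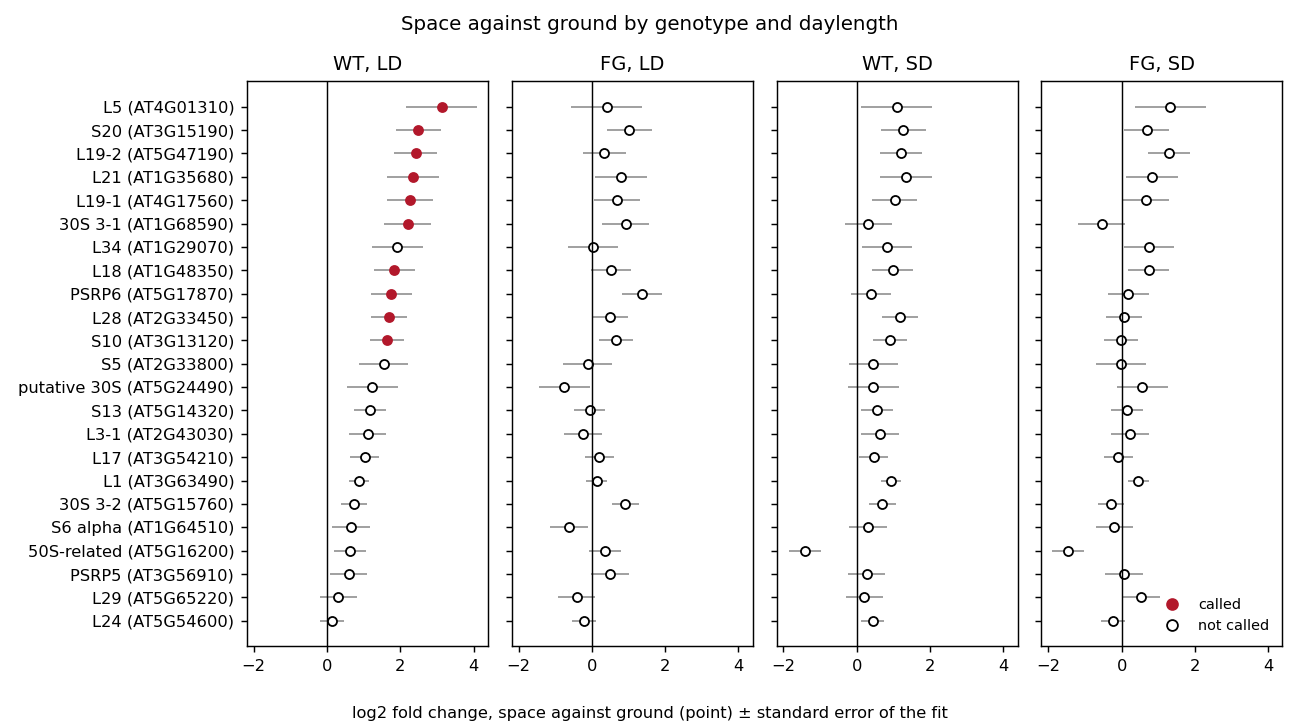
Log2 fold change, space against ground, of each gene (points, filled where called) ± the standard error of the fit, in WT and FG under LD and in WT and FG under SD, ordered by the value in WT under LD. In WT under LD all 23 points lie above 0 and 10 are called, and in the other 3 comparisons none is called.

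Averaged over both genotypes under LD, 9 of the 23 genes were called higher and 0 lower, where 13.5% of all probe sets were called higher and 7.24% lower. All 9 were among the 10 called in WT, and L5 was the gene not called. The median log2 fold change was 0.83, against 0.08 for all probe sets tested. S20 had 1.76 ± 0.43 (adjusted p = 0.0101) and PSRP6 1.56 ± 0.39 (adjusted p = 0.0114). These 2 genes were the only ones of the 9 that stayed called under all 25 alternatives, with adjusted p of 0.00283 to 0.0414 for S20 and 0.00181 to 0.0472 for PSRP6. The count was 2 without replicate 2 of WT in space, of FG in space or of FG on the ground, 3 without WT replicate 1 on the ground and 4 without WT replicate 2 on the ground, all under LD. In these fits 11.5% to 13.6% of all probe sets were called higher. It was 17 with spike-in scaling, where 27.2% of all probe sets were called higher, and 2 with no filter on low signals, where 7.34% were.

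Under SD none of the 23 genes was called between space and ground within either genotype. In WT, 0 of 23 genes were called, where 1.25% of all probe sets were called higher and 0.616% lower. At an unadjusted p below 0.05, 2 genes were higher and 1 lower, where 13.7% of all probe sets were higher and 6.05% lower. The rule of the methods called 0 of the 23 genes and 5.26% of all probe sets. The median log2 fold change was 0.63, against 0.11 for all probe sets tested, but it was -0.28 without WT replicate 1 on the ground and 1.56 without replicate 2, where 6 genes and 2.98% of all probe sets were called higher. Space arrays lay above ground arrays without overlap for 5 genes and below them for 1, as they did for 32.5% and 17.8% of all probe sets. L5 had 2117 and 1643 in space, against 291 and 2657 on the ground, and the space arrays lay between those of the ground. L1 (AT3G63490), which forms a mobile stalk of the large subunit in bacteria, had 2232 and 2174 in space, above 848 and 1562 on the ground (0.94 ± 0.28, adjusted p = 0.110).

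In FG under SD, 0 of 23 genes were called, where 0.609% of all probe sets were called higher and 0.308% lower. At an unadjusted p below 0.05, 1 gene was higher and 1 lower, where 9.82% of all probe sets were higher and 5.81% lower. The rule of the methods called 1 gene in each direction, and 3.39% of all probe sets. The median log2 fold change was 0.18, against 0.05 for all probe sets tested, and -0.016 without FG replicate 2 in space. Space arrays lay above ground arrays without overlap for 9 genes and below them for 2, where 27.1% of all probe sets lay above and 19.1% below. L5 had 1297 and 1870 in space, above 1028 and 373 on the ground (1.33 ± 0.96, adjusted p = 0.561). L19-2 had 498 and 655 in space, above 249 and 218 on the ground (1.29 ± 0.58, adjusted p = 0.319). S5 had 1241 and 1757, against 1810.5 and 1239 (-0.02, 95% interval -1.52 to 1.48). The interaction of genotype with space under SD had a median of -0.41, with 0 of 23 genes called and 0 at an unadjusted p below 0.05. Of all probe sets, 0% were called in either direction and 4.30% had an unadjusted p below 0.05.

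Averaged over both genotypes under SD, 0 genes were called higher and 1 lower, where 3.43% of all probe sets were called higher and 2.08% lower. The median over the 23 genes was 0.43, and -0.069 without WT replicate 1 on the ground. The gene called lower was AT5G16200, the 50S-related protein placed in the mitochondrion. In WT under SD it had 487 and 600.4 in space, against 958 and 2142 on the ground (-1.41 ± 0.44, adjusted p = 0.117). In FG under SD it had 384 and 299 in space, against 878 and 979 on the ground (-1.45 ± 0.44, adjusted p = 0.147). Space arrays were below ground arrays in each genotype without overlap, and the mean over genotypes was -1.43 ± 0.31 (adjusted p = 0.0196). The call was lost without WT replicate 1 or without FG replicate 2 under SD in space, with no filter on low signals, with only the arrays compared, and with spike-in scaling, where the value was -0.96.

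In space the signals of this gene differed between the daylengths. AT5G16200 had 487 and 600.4 in WT under SD in space, against 1991 and 2081 under LD in space (-1.91 ± 0.44, adjusted p = 0.0447). In FG in space it had 384 and 299 under SD, against 1251 and 1934 under LD (-2.20 ± 0.44, adjusted p = 0.0196). The difference was called in both genotypes, where 2.19% of all probe sets were called lower and 0.588% higher in WT, and 3.09% lower and 1.06% higher in FG. Under LD its response to space was 0.63 ± 0.44 in WT, with 1991 and 2081 in space, against 1631 and 1067 on the ground, and 0.36 ± 0.44 in FG, with 1251 and 1934 in space, against 832 and 1762 on the ground. The interaction, its space response in SD less its space response in LD, averaged -1.92 ± 0.44 over the genotypes (adjusted p = 0.0336). It was the single one of the 23 genes called in this interaction, where 1.70% of all probe sets were called higher and 2.66% lower. Within WT alone, 0 of the 23 genes were called in it (0.0980% of all probe sets higher, 0.574% lower, with 1 of the 23 and 6.17% of all probe sets lower at an unadjusted p below 0.05). Within FG alone, 0 were called (0.175% higher, 0.665% lower) and 2 were lower at an unadjusted p below 0.05, as were 8.83% of all probe sets.

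The call in WT in space was kept under 11 of 26 alternatives, with adjusted p of 0.00128 to 0.263, that in FG under 20 of 26 (0.00186 to 0.188), and the interaction under 12 of 25 (0.0126 to 0.0956). The call in WT was lost on leaving out any 1 space array or either array of FG under SD on the ground, and that in FG on leaving out any 1 FG space array.

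The other 22 genes were mostly lower under SD than under LD in space, without a call. In WT, 19 of the 23 genes had both SD arrays below both LD arrays, as had 32.4% of all probe sets tested, and in FG 16 of 23, as had 32.1%. The medians were -0.56 in WT and -0.60 in FG, each against -0.01 for all probe sets tested. The 30S protein 3-1 had a difference of like size to that of AT5G16200. It had 664 and 715 in WT under SD in space, against 2010 and 3195 under LD in space (-1.88 ± 0.64, adjusted p = 0.163). In FG it had 550.2 and 578 under SD, against 2606 and 3288 under LD (-2.38 ± 0.64, adjusted p = 0.0639). PSRP6 had 1938 and 1473 in WT under SD, against 3736 and 4418 under LD (-1.27 ± 0.56, adjusted p = 0.285), and 1326 and 2115 in FG under SD, against 3974 and 5621 under LD (-1.50 ± 0.56, adjusted p = 0.152). With array weights 3 genes were called lower in each genotype, where 6.41% of all probe sets were called lower in WT and 7.85% in FG, and the rule of the methods called 4 in WT and 3 in FG, all lower, where it called 7.32% of all probe sets in WT and 8.13% in FG.

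The putative 30S protein AT5G24490 ran the other way. In WT in space it had 6559 and 6278 under SD, against 4077 and 4589 under LD (0.57 ± 0.70, adjusted p = 0.768). FG in space had 6800 and 5884 under SD, against 3958 and 4285 under LD (0.62 ± 0.70, adjusted p = 0.678). All 4 SD arrays lay above all 4 LD arrays, and it was the single one of the 23 genes whose SD arrays were above its LD arrays without overlap in either genotype. Neither difference was called.

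On the ground, SD against LD gave no calls among the 23 genes. In WT 0 genes reached an unadjusted p below 0.05 (6.43% of all probe sets did) and the median was 0.07, and 0% of all probe sets were called higher and 0.0210% lower. In FG 1 gene was lower at an unadjusted p below 0.05, as were 3.28% of all probe sets, and the median was -0.68, with 22 genes negative, as were 52.2% of all probe sets, and 10 genes lower under SD without overlap, as were 15.4%. No probe set was called there in FG (0% in either direction), and the rule of the methods called 0 of the 23 genes in either genotype, and 0.623% of all probe sets in WT and 0.931% in FG. FG against WT under SD gave 0 calls in space (median -0.01, 0 genes and 2.74% of all probe sets at an unadjusted p below 0.05) and on the ground (median 0.31, 2 genes higher and 0 lower in FG at an unadjusted p below 0.05, with 5.37% of all probe sets higher and 4.63% lower), where at most 0.0140% of all probe sets were called in a direction.

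**Figure D4:**
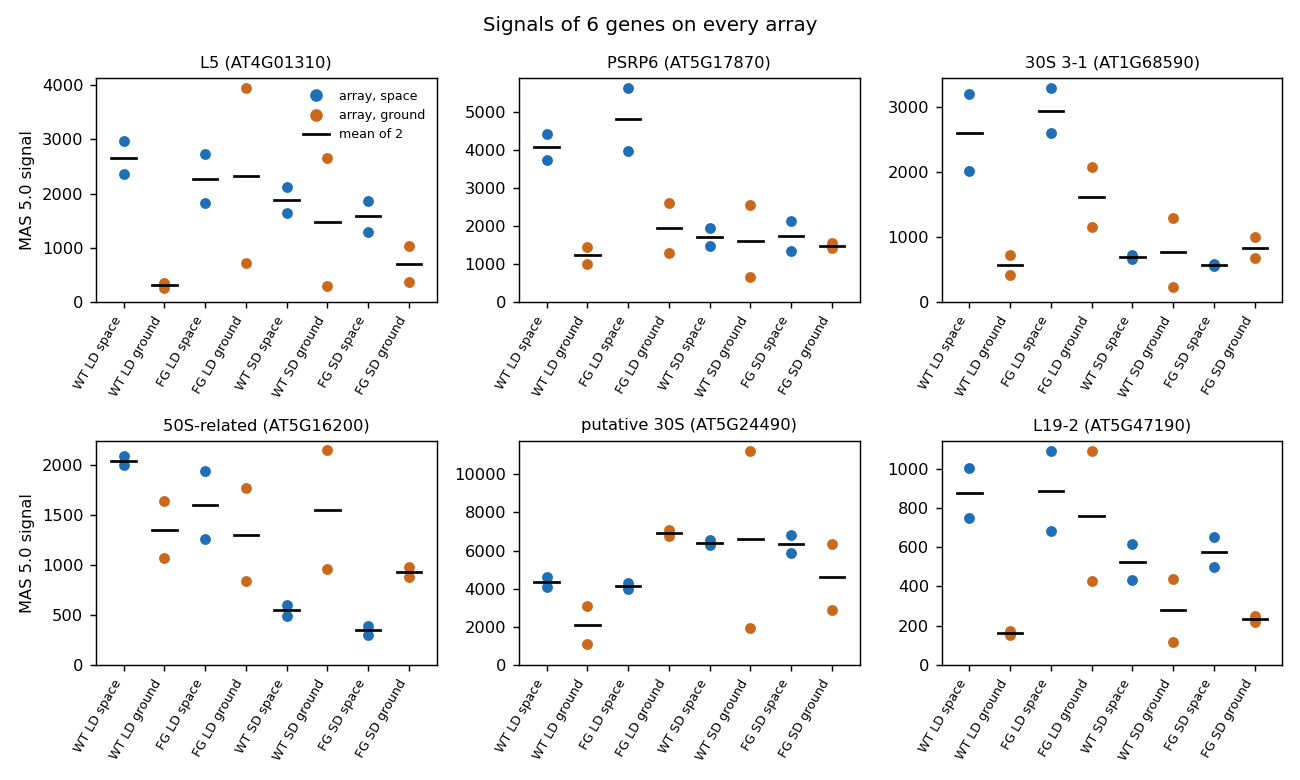
MAS 5.0 signals of L5, PSRP6, the 30S protein 3-1, AT5G16200, AT5G24490 and L19-2 on each array (points, blue for space and orange for ground) with the mean of the 2 arrays of each group (lines). AT5G16200 is lowest in the 4 space arrays under SD, between 299 and 600.4, and L5 spans 291 to 2657 within WT under SD on the ground.

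Most of the genes followed each other from array to array. Over the 16 arrays the median of the 253 pairwise correlations of log2 signals was 0.76, a description over arrays that share groups and scaling. No like value was computed for other probe sets, so it is not shown to be particular to these genes. Against the mean of the other 22 genes, the closest was L18 with r = 0.97, followed by L21 with 0.96, and S5 had 0.94. The farthest were AT5G16200 (0.15), the 30S protein 3-2 (0.50), the putative 30S protein AT5G24490 (0.56) and L24 (0.56). The remaining 19 genes had r of 0.73 or more. Among the 8 space arrays alone AT5G24490 had r = -0.84, and AT5G16200 0.87, while among the 8 ground arrays they had 0.80 and 0.05.

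The probe set with the lowest mean signal was that of the 30S protein 3-2 (AT5G15760, PSRP3/2), with 10 present calls on 16 arrays. In WT under LD it had 95.2 and 164 in space, against 66.2 and 12.6 on the ground, both below the floor of 75. Read against the floor, it was at least 1.67-fold higher in space (adjusted p = 0.176). The probe set with the highest mean signal was that of AT5G24490, with 1092 to 11242 over the 16 arrays.

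Other genes that serve the plastid ribosome were examined as lists written from general knowledge and from titles. Earlier results of these data were known when the lists were chosen, so they are not independent of the data. Of 16 further nuclear genes of plastid ribosomal proteins tested, 8 were called higher and 0 lower in WT under LD, and 0 in FG under LD, with medians of 1.75 and 0.37. Of all probe sets tested, 10.9% were called higher and 5.79% lower in WT under LD, and 9.46% higher and 4.49% lower in FG under LD. In WT, L15 (AT3G25920, RPL15) had 3.05 ± 0.87 (adjusted p = 0.0337), L35 (AT2G24090, PRPL35) 2.74 ± 0.73 (adjusted p = 0.0255) and L9 (AT3G44890, RPL9) 2.33 ± 0.63 (adjusted p = 0.0273). These genes carry other titles, so the 23 genes are a part of the nuclear set. Of 22 plastid-encoded ribosomal protein probe sets, 3 were called higher in WT under LD and 0 in FG, with medians of 0.51 and -0.29. The 3 of 22 lay near the share of 10.9% called higher over all probe sets in WT under LD. The array's labelling starts from poly(A) tails, which plastid messages mostly lack, so these signals stand on a different footing.

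Of 12 plastid translation factors, 8 were called higher in WT under LD and 6 in FG under LD, with 0 lower in either and medians of 1.69 and 1.08. The shares called higher over all probe sets were 10.9% in WT under LD and 9.46% in FG under LD. In WT, APG3 (AT3G62910), a release factor, had 2.83 ± 0.44 (adjusted p = 0.00244), SCO1 (AT1G62750), the elongation factor G, 2.74 ± 0.26 (adjusted p = 2.14e-04), and FUG1 (AT1G17220), the initiation factor IF-2, 2.26 ± 0.25 (adjusted p = 4.59e-04). In FG the same 3 genes had 2.46 ± 0.44 (adjusted p = 0.00592), 2.41 ± 0.26 (adjusted p = 4.50e-04) and 1.86 ± 0.25 (adjusted p = 0.00143).

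Of 17 genes of plastid ribosome assembly and rRNA processing, 9 were called higher in WT under LD and 5 in FG, with 0 lower and medians of 1.45 and 0.70. For this list and the next, 10.9% of all probe sets were called higher in WT under LD and 9.46% in FG under LD. In WT the DEAD-box RNA helicase 22 (AT1G59990, EMB3108) had 3.01 ± 0.50 (adjusted p = 0.00345), the pentatricopeptide repeat protein AT5G46580 2.65 ± 0.28 (adjusted p = 3.87e-04) and helicase RH39 (AT4G09730), which acts on 23S rRNA, 2.53 ± 0.34 (adjusted p = 0.00110). Of 21 genes of plastid transcription, 13 were called higher in WT and 8 in FG, with 0 lower and medians of 1.32 and 0.73. SIGA (AT1G64860), a sigma factor of the plastid RNA polymerase, had 3.79 ± 0.31 in WT (adjusted p = 9.43e-05) and 3.65 ± 0.31 in FG (adjusted p = 1.14e-04).

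Ribosomal proteins of the cytosol, chosen by 40S and 60S titles, gave 36 of 123 genes higher in WT under LD and 50 in FG under LD, with 0 lower and medians of 1.05 and 1.26. Over all probe sets, 10.9% were called higher in WT under LD and 9.46% in FG under LD. Under SD the medians were 0.74 in WT and 0.07 in FG, with 3 and 0 genes called higher, where 1.25% and 0.609% of all probe sets were. The 23 genes had medians of 1.54 and 0.36 under LD and 0.63 and 0.18 under SD. None of these differences between lists was tested.

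**Figure D5:**
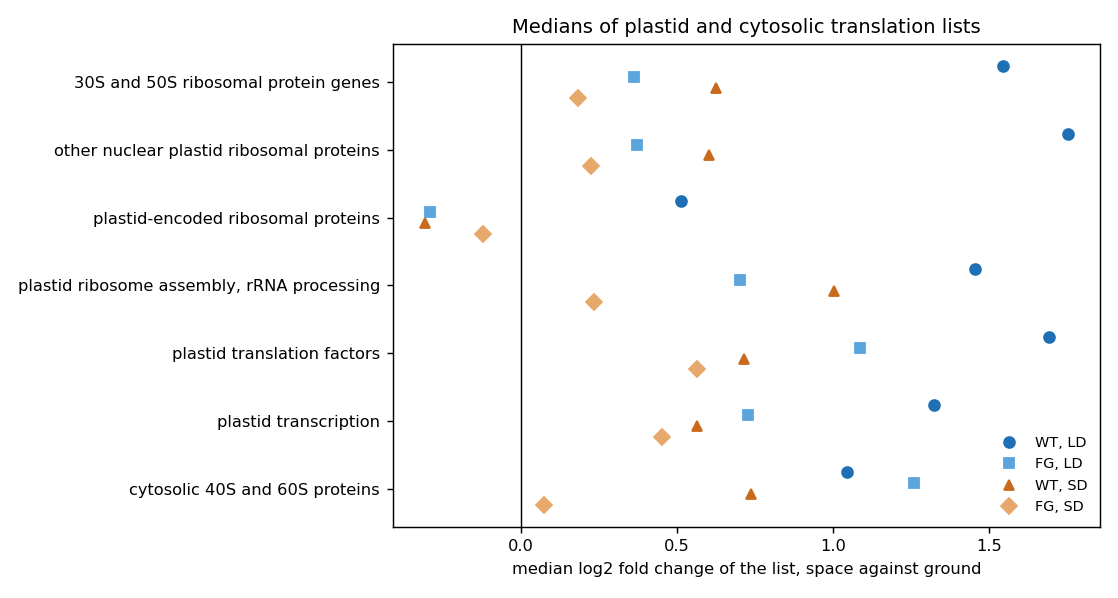
Median log2 fold change, space against ground, of each list over its genes tested, with 1 marker for each combination of genotype and daylength. The 23 genes and the other nuclear genes of plastid ribosomal proteins lie at 1.54 and 1.75 in WT under LD and at 0.36 and 0.37 in FG under LD, and the cytosolic list lies at 1.05 and 1.26.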

How the data were processed

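The deposited values are log2 of MAS 5.0 signals. The authors had brought every array to 1 mean after setting aside the lowest and highest 2% of probe sets (499.7 to 499.8 here). The deposited detection calls (present, marginal, absent), a column of other type, stand beside them, and a second value table holds the same numbers (largest difference 5e-09). Labelling used a 3′ IVT kit, and the array does not tell splice forms apart. A version for MAS 5.0 was not given in the sources used here. The methods name a floor of 75, but lower values were in the table. No column of another sample was found (0).

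Signals under 75 were raised to 75, control probe sets (64) were set aside, and 14286 of 22810 probe sets (over 75 on both replicates of a group) were fitted with limma 3.58.1 in R 4.3.3 (lmFit, eBayes), with 1 mean per group over 16 arrays, 8 residual and 2.75 prior degrees of freedom. The 19 contrasts were adjusted separately by Benjamini-Hochberg. Array measures were compared by exact permutation tests (scipy 1.17.1). The members and lists were chosen with earlier results of these data known. Values on every array are given for the 3 largest rises and falls called in each space against ground comparison, genes called elsewhere, the highest and lowest mean signals, S5, PSRP6 and the L19 pair. The other genes given with values (L5 and S20 in FG, L34, L24, L29, L1, L18, L28, S10, L21, L19-1 and 30S 3-1) were chosen after their values were seen. Up to 3 called genes of a list are named from the LD comparisons. The lists cover plastid translation factors, ribosome assembly, transcription, other plastid ribosomal proteins, heat shock, leaf, guard cells, root, flower, vasculature and dividing cells, with cytosolic and plastid-encoded ribosomal proteins by title. Of 5 leaf genes 3, and of 5 genes of dividing cells 4, had a probe set that names 1 gene. Where several probe sets measured a listed gene, the brightest on average was taken. All 23 locus tags were matched to symbols in RefSeq (TAIR10.1). Motifs, promoters and protein sequences were not used here.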

Additional observations from a re-analysis of the deposited data

Results flagged for a closer look

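The response of AT5G16200 to space was called as differing between daylengths by a test of the difference itself. This call was kept under 12 of 25 alternatives. The response under SD minus that under LD, averaged over WT and FG, was -1.92 ± 0.44 on the log2 scale (limma, adjusted p = 0.0336). The same difference was -2.03 ± 0.62 in WT (adjusted p = 0.191) and -1.81 ± 0.62 in FG (adjusted p = 0.202), so it was negative in both genotypes and called in neither alone. SD plants had been heated and LD plants had not, so daylength and heating cannot be told apart here. No group held enough arrays to look for a single outlying array.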

How the results depend on the processing

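The values compared were counts of genes called and median log2 fold changes. Of 240 values under other settings, 205 stayed equal or close to the main value, and 35 moved. Of 400 values with 1 array left out, 342 did so, 54 moved and 4 reversed. Close was read broadly: 12 calls with array weights in WT under LD, against 10, were not counted as moved. Many values that stayed were counts of 0 in comparisons with almost no calls. FG against WT under LD in space kept 0 in all 10 other settings, where 0% of all probe sets were called higher and 0.00700% lower in the main fit. The totals thus say little about how stable the calls are. For each of the moves and reversals the cause was not tested. In WT under LD, space against ground gave 6 genes called with no floor, 0 with no filter on low signals, 6 with median centring, 16 with spike-in scaling, 2 with only the arrays compared, and 0 to 15 with 1 array left out. Its median was 1.20 with median centring, 2.13 with spike-in scaling and 1.23 to 1.78 with 1 array left out. In FG under LD, 1 gene was called higher with spike-in scaling, where 18.3% of all probe sets were. With array weights 1 gene was called, where the main fit called 9.46% of all probe sets higher and 4.49% lower. The median was 0.81 with spike-in scaling and -0.055 to 0.86 with 1 array left out. In WT under SD 1 gene was called higher with spike-in scaling, where 15.0% of all probe sets were. Its median was -0.28 to 1.56 over the 23 genes with 1 array left out. In FG under SD the rule of the methods called 2, and the median was 0.58 with spike-in scaling and -0.016 to 0.28 with 1 array left out. Over both genotypes under LD the count was 2 with no filter, 17 with spike-in scaling (median 1.23) and 2 to 10 with 1 array left out. Under SD it was 0 with no filter, 0 with only the arrays compared and 4 with spike-in scaling, all higher, where 16.7% of all probe sets were. The medians under SD were -0.069 to 0.83 with 1 array left out.

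SD against LD in space gave, in WT, 0 calls with no floor, with log2(signal + 32), with no filter, with median centring and with only the arrays compared, 3 with array weights, 4 by the rule of the methods and 0 to 2 with 1 array left out. In FG it gave 0 with no filter and with only the arrays compared, 3 with array weights and 3 by the rule of the methods. With quantile normalization it gave 2, both lower, where 2.90% of all probe sets were called lower. FG against WT under LD on the ground gave 1 by the rule of the methods. The interaction of daylength with space over both genotypes gave 0 with no floor, no filter and median centring, and 0 to 3 with 1 array left out, and that in WT 0 to 1.

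The labels do not say whether replicate numbers shared between groups pair the arrays, and the correlations left it open. Over 28 pairs of groups the correlation of the differences between replicates was -0.28 to 0.50, with 14 over 0.1. For space against ground it was 0.28 in WT under LD and 0.16 in FG under SD. It was -0.20 in FG under LD and -0.24 in WT under SD. With the replicate number as a block, 9 genes were called in WT under LD and 9 over both genotypes, and 22 of 23 calls were kept. Crossing the numbers, an alternative chosen after seeing the data, was tried in FG under LD, WT under SD and FG against WT under SD in space. These comparisons had 0 calls in the main fit, and only the arrays compared were used. Their 0 calls with crossed numbers thus cannot tell whether the numbers pair the arrays. The rule of the methods, in the modelled form used here, called 11 genes in WT under LD, and 0 after Benjamini-Hochberg adjustment of its p-values. The authors' own test was not reproduced. With 2 arrays a group, the number of arrays limits the precision.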
